A study of Mus musculus with 4 samples.

Results

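The genes described here are those of the BCL2 family, the caspases and the core machinery of apoptosis in R1 mouse embryonic stem (ES) cells, an established line of pluripotent cells. They were taken from a list of 38 gene symbols, as every probe set of the array whose platform annotation gives one of those symbols. In all, 35 of the 38 genes were found, with 75 of the 22626 probe sets that are not array controls, among 12393 genes in total. Bax and Ripk1 were not analysed here, and the 3 probe sets of Bnip3l are annotated to its pseudogene as well and were not used. The knockdown group was R1 cells infected with a lentiviral short hairpin RNA (shRNA) against Brg1, a chromatin remodelling ATPase of SWI/SNF complexes that Smarca4 encodes. The control group was R1 cells infected in the same way with an shRNA against GLUT4 (Slc2a4), a glucose transporter, as a control. Each group had 2 samples from duplicate infections, all harvested 67 h after infection, and each sample was read on 1 Affymetrix array. Both groups carry a lentivirus and an shRNA, so uninfected cells are not part of the comparison. The labels do not say how many hairpins were used per target, and they name no selection of infected cells.

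Apoptosis by the mitochondrial route is set by the balance of BCL2 proteins. Pro-survival members such as BCL2, BCL-XL and MCL1 hold the pore-forming effectors BAX and BAK in check, and BH3-only proteins, which share with them a short helix, block the pro-survival members or activate the effectors. Once the outer mitochondrial membrane opens, cytochrome c leaves the mitochondrion and APAF1 assembles it into the apoptosome, which activates caspase-9. A second route starts at death receptors, whose adaptor FADD recruits caspase-8. Pluripotent cells are known for dying readily by apoptosis after DNA damage. The arrays measured RNA only, and caspase cleavage and the release of mitochondrial proteins take place at the protein level.

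The promoters of 4 of these genes are shown. Apaf1 rose and Bid and Aifm1 fell in the test described below, and Mcl1, which did not pass at gene level, had 3 of its 6 probe sets higher in a fit of single probe sets. The called genes Bbc3 and Bcl2l11 are not shown because each has several windows, while each of the 4 has a single one in the RefSeq promoter table of build GRCm38.p6, from 250 bases before to 50 bases after the annotated start. The windows are chr10:91082694-91082993 on the minus strand, chr3:95658471-95658770 on the plus strand, chr6:120916775-120917074 on the minus strand and chrX:48513514-48513813 on the minus strand. They are written 5′ to 3′ on the gene's strand, and capitals mark matches to the motifs listed after them.
Apaf1: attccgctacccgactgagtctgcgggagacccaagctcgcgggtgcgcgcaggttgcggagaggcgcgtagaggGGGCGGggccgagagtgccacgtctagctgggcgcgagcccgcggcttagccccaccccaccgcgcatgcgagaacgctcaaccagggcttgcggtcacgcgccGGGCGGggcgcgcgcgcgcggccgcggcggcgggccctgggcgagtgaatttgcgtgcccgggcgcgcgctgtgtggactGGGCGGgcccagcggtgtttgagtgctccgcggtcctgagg
Mcl1: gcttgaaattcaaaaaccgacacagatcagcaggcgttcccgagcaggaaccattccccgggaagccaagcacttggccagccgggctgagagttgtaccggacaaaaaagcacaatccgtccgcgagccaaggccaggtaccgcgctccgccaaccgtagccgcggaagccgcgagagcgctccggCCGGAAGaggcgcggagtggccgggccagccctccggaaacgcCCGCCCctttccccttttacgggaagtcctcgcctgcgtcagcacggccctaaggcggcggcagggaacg
Bid: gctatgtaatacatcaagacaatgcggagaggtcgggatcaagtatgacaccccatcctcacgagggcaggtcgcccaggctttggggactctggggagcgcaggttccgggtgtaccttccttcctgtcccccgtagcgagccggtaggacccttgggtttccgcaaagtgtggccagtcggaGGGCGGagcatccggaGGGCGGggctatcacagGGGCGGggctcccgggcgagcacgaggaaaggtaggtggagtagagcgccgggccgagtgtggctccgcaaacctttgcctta
Aifm1: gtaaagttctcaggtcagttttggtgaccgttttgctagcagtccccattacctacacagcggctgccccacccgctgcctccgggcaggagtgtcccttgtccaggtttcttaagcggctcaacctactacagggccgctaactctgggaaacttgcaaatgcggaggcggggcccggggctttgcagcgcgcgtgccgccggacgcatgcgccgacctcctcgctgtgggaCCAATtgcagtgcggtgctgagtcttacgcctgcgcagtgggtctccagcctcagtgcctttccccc
Both strands were searched for the GC box GGGCGG, the CCAAT box CCAAT, the TATA box TATAAA, the NRF1 core, the cyclic AMP response element TGACGTCA, the E2F site TTTCGCGC, the ETS site CCGGAAG, the E-box CACGTG, the AP-1 site TGANTCA and the p53 half-site, the NRF1 core and the p53 half-site being given by name. None of the matches in these 4 windows overlap. Apaf1 and Bid held 3 GC boxes each, Mcl1 held 1 GC box and 1 ETS site, and Aifm1 held 1 CCAAT box. A GC box was found in 62.2% of the 45 windows of these genes, which cover 32 of the 35 genes, and in 35.7% of all 32851 windows of the table. The windows of these genes were also richer in G and C, with a median of 62.0% against 52.7% over all windows; the part of this in the GC box share was not tested. The CCAAT box was found in 33.3% of the windows of these genes and in 37.4% of all windows, and the ETS site in 11.1% and 8.86%. The p53 half-site was found in 4.44% of the windows of these genes and in 8.36% of all windows. The TATA box was found in 4.44% and 13.6%, and the AP-1 site in 0 of the windows of these genes and in 7.81% of all. The NRF1 core was in 4.44% of the windows of these genes (2 of 45) and in 0.971% of all. Both windows with it belong to Bnip2 and overlap each other, so they are not separate cases. Windows of Bbc3, Casp4 and Birc2 overlap too. The cyclic AMP response element was in 4.44% and 1.79%, the E2F site in 2.22% (1 of 45) and 0.323%, and the E-box in 6.67% and 7.15%. No match says only that the letters are not in that stretch of 300 bases.

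The 4 arrays had one common scale as deposited, a trimmed mean of 200.1 signal units each. Their median signals were 49.5 and 50.05 units in the knockdown, against 46.6 and 48.2 units in the control. Beta-actin's 3'/5' signal ratio, a measure of RNA integrity, was 1.31 to 1.36 in both groups. Smarca4 had 652.1 and 621.5 units on the knockdown arrays, against 1186.6 and 1213.6 units on the control arrays, a log2 difference of -0.89 ± 0.08 (SE; adjusted p = 0.000232 by limma), so a good part of its RNA remained. Slc2a4 lay below the level needed for testing in both groups. The 2 arrays of a group differed by an SD of 0.22 (knockdown) and 0.20 (control) in log2 signal over the tested genes, against 0.32 to 0.38 between arrays of different groups.

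Most apoptosis genes did not pass the test. Apaf1, the scaffold of the apoptosome, rose and had the highest difference of them. The BH3-only genes Bbc3, which encodes PUMA, and Bcl2l11, which encodes BIM, also rose. The BH3-only gene Bid and Aifm1, a mitochondrial flavoprotein that can also act in cell death, fell. Genes whose mean over the 4 arrays reached 23.9 units were tested with limma on log2(signal + 20.0), with Benjamini-Hochberg adjustment across the 7815 genes that reached this level, and a gene was called at an adjusted p under 0.05. Of the 35 genes, 29 were tested, of which 3 rose, 2 fell and 24 did not pass. Over all tested genes 14.4% were called, 9.33% higher and 5.09% lower in the knockdown, so the 5 of 29 apoptosis genes, or 17.2%, lie near the background. Their median log2 difference was 0.00, against 0.04 over all tested genes, and 15 of the 29 lay above 0. Signals did not overlap between the groups in 16 of the 29 genes, 10 higher and 6 lower in the knockdown, where the share over all tested genes was 60.2%, or 34.3% higher and 25.9% lower. The counts moved with the scale of the arrays: 2 rose and 2 fell with each array centred on its median, and 7 rose and 0 fell with the arrays scaled to their hybridisation spike-ins, a scaling that puts the median of all tested genes at 0.35. They also moved by array, with 1 rise and 0 falls without knockdown replicate 2, 1 rise and 2 falls without control replicate 1, 6 rises and 1 fall without knockdown replicate 1, and 3 rises and 0 falls without control replicate 2.

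**Figure D1:**
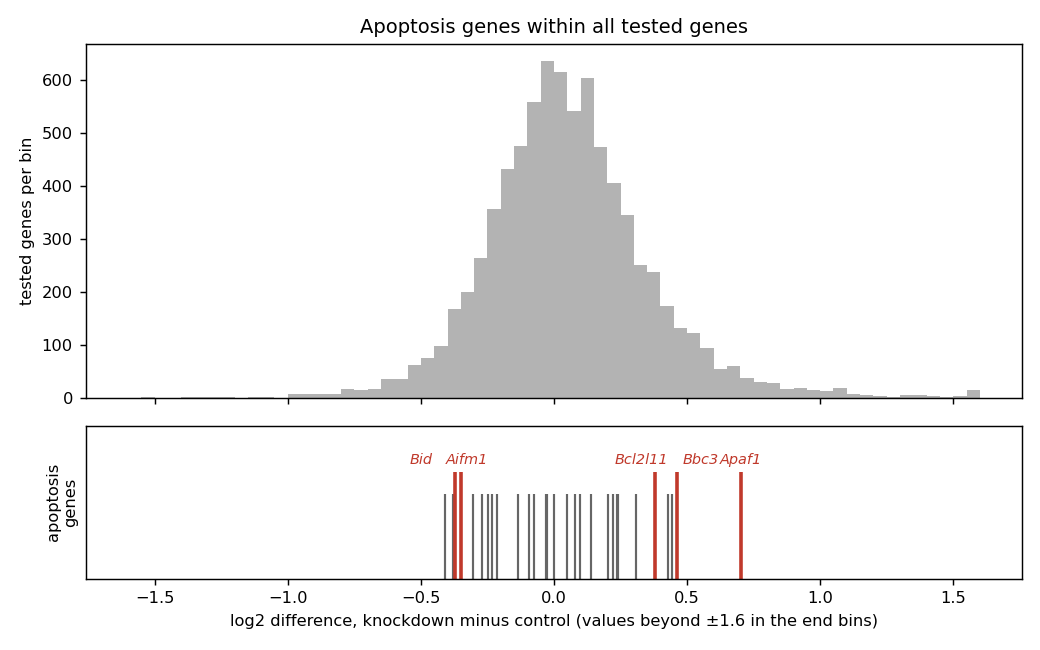
The upper panel counts all 7815 tested genes by their log2 difference, knockdown minus control, with more extreme values placed in the end bins. The lower panel draws a line for each of the 29 tested apoptosis genes at its difference, in red and named for the 5 that passed the test; the 29 spread on both sides of 0, between -0.41 (Cflar) and 0.70 (Apaf1).

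The rule for a gene with several probe sets took the one with the highest mean, and left out probe sets of the _x_at kind, which can bind several transcripts, where another was there. Fitted one by one, 55 of the 75 probe sets reached the level for testing, of which 6 rose and 0 fell with limma, where 9.13% of all 13576 tested probe sets were called, 5.76% higher and 3.37% lower. The 6 were 3 probe sets of Mcl1, both of Apaf1 and the single one of Bbc3, and without the intensity trend 3 probe sets passed. At an unadjusted p under 0.05 the counts were 12 higher and 4 lower, or 21.8% and 7.27%. Over all tested probe sets the shares were 15.4% higher and 12.7% lower. Probe sets of 1 gene are not separate cases, and Mcl1 alone has 6 tested ones, all above 0. Counted by gene at the same unadjusted level, 6 of the 29 tested genes were higher and 3 lower. Over all 7815 tested genes the counts were 1497 higher and 949 lower. Of the 15 genes with several tested probe sets, 7 had all of them on one side of 0 and 8 had them on both sides.

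**Figure D2:**
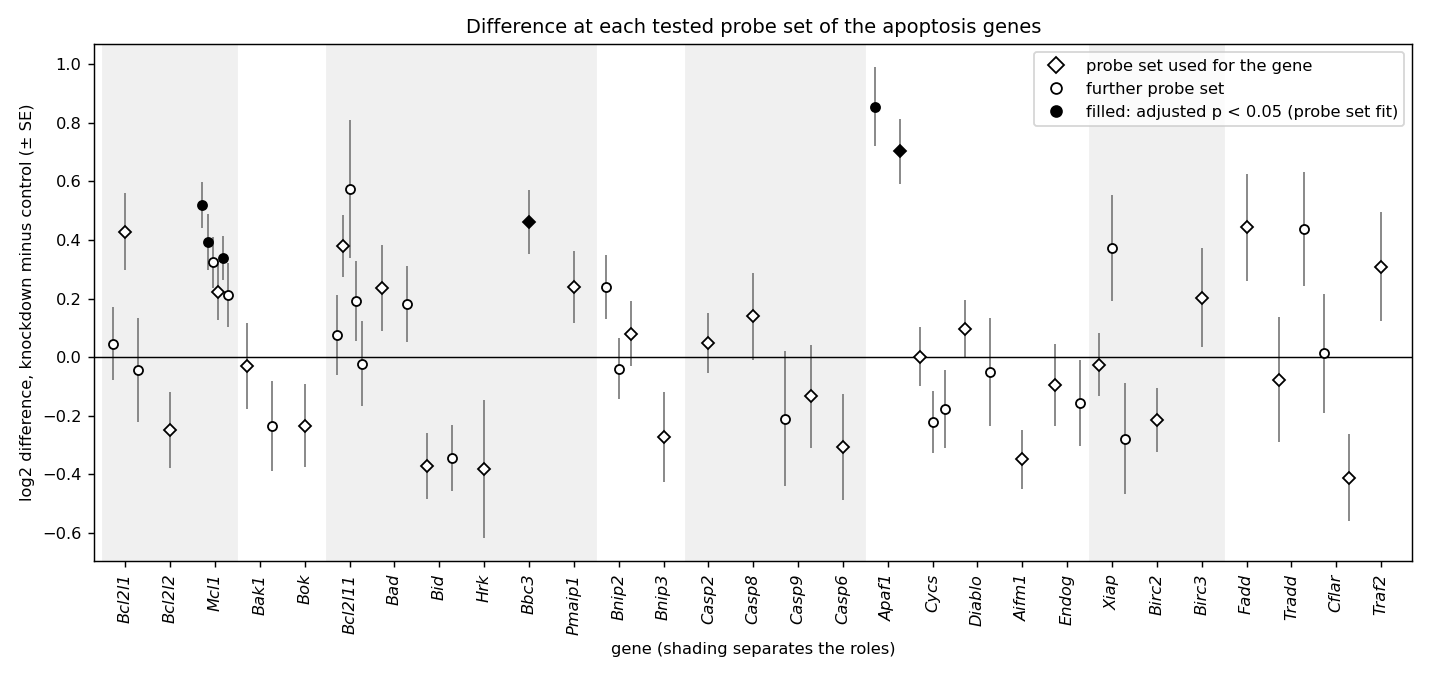
Log2 difference, knockdown minus control, at each of the 55 tested probe sets of the apoptosis genes, with the SE of the limma fit of single probe sets as bars. Diamonds are the probe sets used for the gene, circles are further ones, and filled symbols passed at an adjusted p under 0.05; the filled ones belong to Mcl1, Bbc3 and Apaf1, all above 0.

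Among the pro-survival genes, Mcl1, which encodes a short-lived guardian protein, was the brightest, and its probe sets disagreed on the test but not on the direction. On the probe set used for the gene it had 1733.1 and 1460.7 units on the knockdown arrays, against 1321.5 and 1402.6 units on the control arrays, a log2 difference of 0.22 ± 0.09 (SE; adjusted p = 0.133 by limma). All 6 of its probe sets had both knockdown arrays above both control arrays, with log2 differences of 0.21 to 0.52. In the fit of single probe sets 3 of the 6 rose. The one with the highest difference had 1136.5 and 1154.7 units in the knockdown and 788.8 and 798.0 units in the control (adjusted p = 0.00666). The other two had differences of 0.39 and 0.34 with adjusted p of 0.04 and 0.0285. With the mean of all its probe sets Mcl1 had a difference of 0.33 and passed at gene level (limma, adjusted p = 0.0203).

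Bcl2l1, whose main product is BCL-XL, lay just outside the threshold. It had 215.0 and 240.0 units on the knockdown arrays, against 147.1 and 181.7 units on the control arrays. The groups did not overlap, and the log2 difference was 0.43 ± 0.13 (SE; adjusted p = 0.0503 by limma). It passed without knockdown replicate 1 (adjusted p = 0.0456) or without control replicate 2 (0.0196), and was at 0.36 (0.198) without knockdown replicate 2 and at 0.29 (0.237) without control replicate 1. Its other 2 tested probe sets were near 0, at 0.05 and -0.04, and the mean over its probe sets gave 0.04, so the size of this difference rests on 1 probe set. Bcl2l2, which encodes BCL-W, had 99.9 and 97.5 units in the knockdown and 113.2 and 129.3 units in the control, a log2 difference of -0.25 ± 0.13 (limma, adjusted p = 0.215). Bcl2 itself was dim, with 11.7 and 9.30 units in the knockdown and 6.40 and 22.0 units in the control, below the level for testing. Of the 3 tested pro-survival genes 0 passed with limma, and 2, Mcl1 and Bcl2l1, were higher at an unadjusted p under 0.05. Over all 7815 tested genes, 1497 were higher at that unadjusted level.

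Neither effector gene measured here passed. Bak1, which encodes the pore-forming BAK, had 204.8 and 183.4 units in the knockdown, within the 171.2 and 229.3 units of the control arrays (log2 difference -0.03 ± 0.14; limma, adjusted p = 0.907). Bok, an effector relative, had 171.5 and 155.8 units in the knockdown and 170.8 and 223.9 units in the control, a difference of -0.23 ± 0.14 (limma, adjusted p = 0.279). On these probe sets the groups overlapped for both genes, and neither gene had an unadjusted p under 0.05. A second, dimmer probe set of Bak1 had 35.1 and 37.8 units in the knockdown and 48.5 and 44.4 units in the control. Its difference was -0.23 without overlap, and it did not pass in the fit of single probe sets (limma, adjusted p = 0.352).

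The BH3-only genes held 3 of the 5 calls, and they went both ways. Of the 8 genes 6 were tested, of which 2 rose, 1 fell and 3 did not pass, with a median log2 difference of 0.24. Over all tested genes 14.4% were called and the median was 0.04. Bbc3, known as a target of p53, had 252.1 and 257.1 units on the knockdown arrays, against 172.0 and 187.3 units on the control arrays. Both knockdown arrays lay clear of the control arrays, and the log2 difference was 0.46 ± 0.11 (SE), or 1.38-fold (limma, adjusted p = 0.0208). It kept its call in 14 of 17 alternatives. The call was lost without knockdown replicate 2 (adjusted p = 0.0718), without control replicate 1 (0.081) and when genes below the level for testing were included (0.056).

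Bcl2l11, known as a target of FOXO factors, had 420.6 and 489.1 units on the knockdown arrays, against 349.3 and 339.3 units on the control arrays. The log2 difference was 0.38 ± 0.10 (SE; adjusted p = 0.0375 by limma), with no overlap. It kept its call in 8 of 17 alternatives. The call was lost without knockdown replicate 2 (0.214), control replicate 1 (0.0635) or control replicate 2 (0.0848), and with median centring (0.0516). None of the 5 tested probe sets of Bcl2l11 passed in the fit of single probe sets, where the one used for the gene had an adjusted p of 0.059 by limma. With the mean of all its probe sets the difference was 0.24 and did not pass (limma, adjusted p = 0.152). The other 4 tested probe sets ranged from -0.02 to 0.57. The one at 0.57 rests on a single array, with 95.9 and 185.8 units in the knockdown and 84.7 and 82.7 units in the control.

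Bid, whose product is cut by caspase-8 and carries the death receptor signal to mitochondria, was the BH3-only gene that fell. It had 283.8 and 295.1 units on the knockdown arrays, against 348.0 and 414.7 units on the control arrays, a log2 difference of -0.37 ± 0.11 (SE; adjusted p = 0.0494 by limma), just inside the threshold. A second probe set gave 145.9 and 140.9 units in the knockdown and 190.3 and 184.4 units in the control, a difference of -0.34. The groups did not overlap on either, and neither passed in the fit of single probe sets (limma, adjusted p = 0.0741 and 0.0914). It kept its call in 10 of 17 alternatives. The call was lost without knockdown replicate 1 (0.107), knockdown replicate 2 (0.0977) or control replicate 2 (0.238), and with the spike-in scaling its difference was -0.06 (0.849).

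The other BH3-only genes did not pass. Pmaip1, which encodes NOXA and is also a known p53 target, had 189.3 and 180.5 units in the knockdown and 141.9 and 165.9 units in the control, a log2 difference of 0.24 ± 0.12 (SE; adjusted p = 0.202 by limma) without overlap. Bad, which growth factor kinases keep inactive, had a difference of 0.24 ± 0.14 (adjusted p = 0.288), and its second probe set one of 0.18. Hrk was close to the level for testing and variable, with 27.5 and 13 units in the knockdown and 40.5 and 23.9 units in the control (adjusted p = 0.296). Bik and Bmf lay below that level, with at most 22.7 units on any array over their probe sets.

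**Figure D3:**
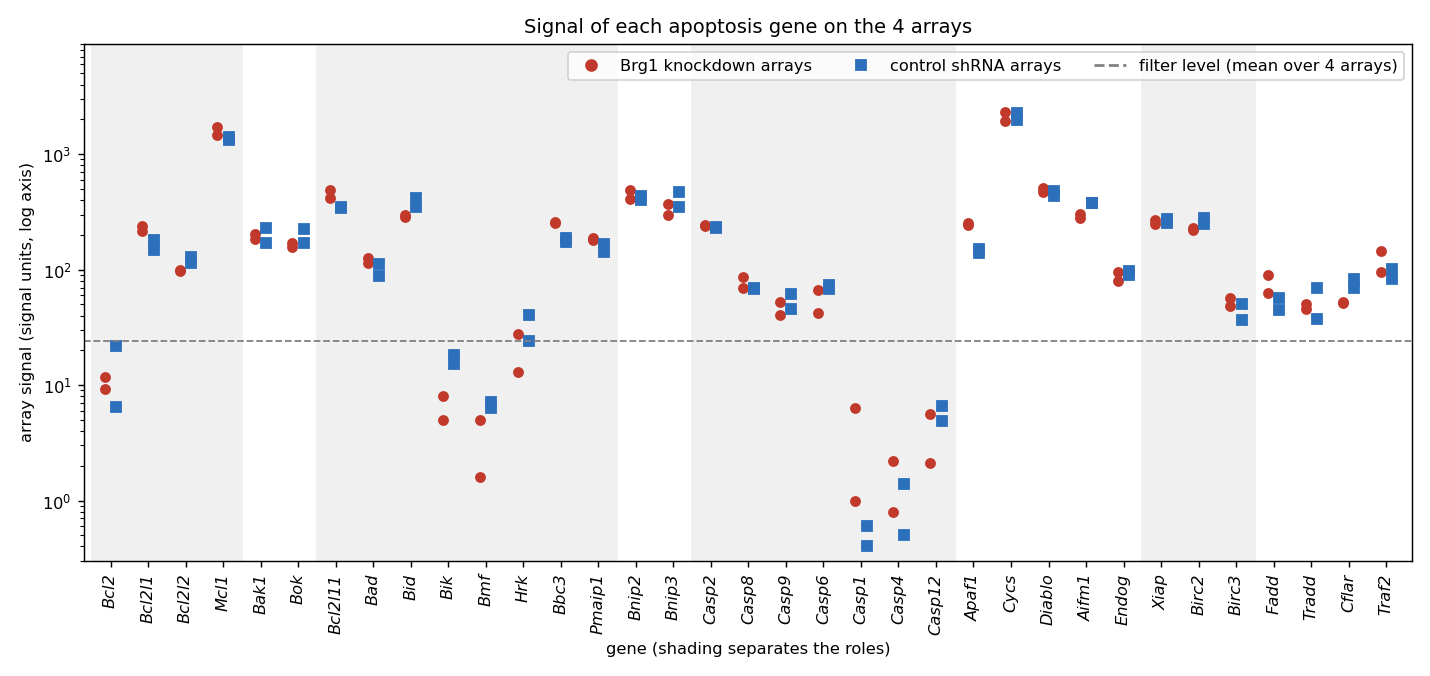
Signal of each of the 35 apoptosis genes on the 4 arrays (log axis), with Brg1 knockdown arrays as red circles on the left of each gene and control arrays as blue squares on the right. The dashed line is the level for testing, 23.9 units as a mean over the 4 arrays; Mcl1 and Cycs are the brightest genes, and Casp1, Casp4 and Casp12 lie far below the line.

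The BNIP genes are related to the BCL2 family by interaction or by a weak BH3-like stretch. Bnip3, a mitochondrial protein induced by hypoxia that also acts in mitophagy, had 299.8 and 371.8 units in the knockdown and 350.9 and 472.5 units in the control. The groups overlapped, and the log2 difference was -0.27 ± 0.15 (SE; adjusted p = 0.238 by limma), which passed only without control replicate 1 (-0.48, adjusted p = 0.039). Bnip2 had a difference of 0.08 ± 0.11 (limma, adjusted p = 0.649), and its 3 tested probe sets ran from -0.04 to 0.24.

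None of the 4 tested caspase genes passed with limma, and 0 had an unadjusted p under 0.05. Casp2, an initiator caspase linked to DNA damage, had the smallest difference of them, with 242.3 and 239.3 units in the knockdown and 233.7 and 230.6 units in the control (log2 difference 0.05 ± 0.10, SE). Casp8, the initiator of the death receptor route, had 86.5 and 69.1 units in the knockdown and 68.0 and 68.8 units in the control (0.14 ± 0.15). Casp9, the initiator that the apoptosome activates, had 40.6 and 52.8 units in the knockdown and 45.4 and 61.2 units in the control (-0.13 ± 0.17). Casp6, an executioner caspase, had 42.5 and 66.4 units in the knockdown and 67.5 and 74.3 units in the control, a difference of -0.31 ± 0.18 (limma, adjusted p = 0.272). Casp1, Casp4 and Casp12, which belong to the inflammatory group, had at most 12.8 units on any array over their 4 probe sets, below the level for testing, so any difference in them was not detectable on these arrays.

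Apaf1 had the largest difference of the 29 tested genes. It had 253.7 and 242.8 units on the knockdown arrays, against 150.6 and 139.2 units on the control arrays. The arrays of a group lay close together and far from the other group, with means of 248.2 ± 7.71 units over the knockdown arrays and 144.9 ± 8.06 units over the control arrays (SD, n = 2 each). The log2 difference was 0.70 ± 0.11 (SE), or 1.63-fold (limma, adjusted p = 0.00355). Its second probe set gave 153.4 and 152.6 units in the knockdown and 83.1 and 68.7 units in the control, a difference of 0.86 ± 0.13 that passed in the fit of single probe sets (adjusted p = 0.00769). Apaf1 kept its call in all 17 alternatives, including each array left out in turn, with differences of 0.61 to 1.01 and adjusted p up to 0.0219. Ordered from the highest signed difference down, Apaf1 stood at place 218 among the 7815 tested genes.

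The other mitochondrial genes differed less. Aifm1 had 304.9 and 280.5 units on the knockdown arrays, against 378.3 and 377.5 units on the control arrays, a log2 difference of -0.35 ± 0.10 (SE; adjusted p = 0.0413 by limma) with no overlap. It kept its call in 9 of 17 alternatives. The call was lost without knockdown replicate 2 (0.187), control replicate 1 (0.111) or control replicate 2 (0.0971), and with the spike-in scaling its difference was -0.04 (0.904). Cycs, which encodes cytochrome c, had 1955.1 and 2307.6 units in the knockdown and 2270.6 and 1984.1 units in the control, and its log2 difference was 0.00 ± 0.10. The other 2 tested probe sets of Cycs were at -0.22, without overlap, and at -0.18, and neither passed in the fit of single probe sets. The mean of its probe sets gave -0.13. Diablo, whose product SMAC relieves caspases of their inhibitors, had a difference of 0.10 ± 0.10 (adjusted p = 0.528), and the nuclease gene Endog one of -0.09 ± 0.14 (adjusted p = 0.682).

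Xiap, Birc2 and Birc3, the inhibitor of apoptosis genes among the 35, did not pass. Xiap, which binds caspases directly, had 267.3 and 248.6 units in the knockdown and 253.0 and 272.7 units in the control, a log2 difference of -0.03 ± 0.10 (SE) with overlapping groups. Dimmer tested probe sets of Xiap were at 0.37, without overlap, and at -0.28, so its probe sets differ in sign. Neither of these passed in the fit of single probe sets. Birc2, which encodes the ubiquitin ligase cIAP1, had 230.0 and 221.4 units in the knockdown and 280.0 and 250.6 units in the control, a difference of -0.21 ± 0.11 (limma, adjusted p = 0.202) without overlap. Birc3, which encodes cIAP2 and is a known NF-kappaB target, was dimmer and differed by 0.20 ± 0.17 (adjusted p = 0.441). None of the 3 had an unadjusted p under 0.05.

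Death receptor adaptors were all dim, under 150 units. On the probe sets used for the genes, the spread was wide between the knockdown arrays for Fadd and Traf2. For Tradd it was wide between the control arrays. Fadd had 62.8 and 90.7 units in the knockdown and 44.4 and 57.0 units in the control, a log2 difference of 0.44 ± 0.18 (SE; adjusted p = 0.124 by limma). Cflar, which encodes the caspase-8 inhibitor c-FLIP, had 52.9 and 51.6 units in the knockdown and 83.4 and 69.2 units in the control, a difference of -0.41 ± 0.15 (adjusted p = 0.0918), the most negative of the 29. A second tested probe set of Cflar was at 0.01, so its probe sets differ. The groups did not overlap for Fadd or Cflar, and both had an unadjusted p under 0.05. So did 2446 of all 7815 tested genes. Traf2, an adaptor of TNF receptors, had 94.5 and 145.5 units in the knockdown and 100.6 and 82.3 units in the control (0.31 ± 0.18, adjusted p = 0.276), and Tradd, the adaptor of TNFR1, differed by -0.08 ± 0.21 (adjusted p = 0.834). A second probe set of Tradd had 51.4 and 46.2 units in the knockdown and 22.9 and 40.1 units in the control, a difference of 0.44, and the mean of both gave 0.18, so its probe sets differ in sign. Both Fadd and Traf2 rested on knockdown replicate 2: without it they were at 0.23 (adjusted p = 0.514) and 0.04 (0.915), and without knockdown replicate 1 they passed at 0.65 (0.0323) and 0.58 (0.0358). Without control replicate 1 Fadd was at 0.31 (0.415), and without control replicate 2 Traf2 was at 0.19 (0.602).

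A wider list of 70 further apoptosis genes, among them receptors, nucleases and regulators, had 58 on the array and 47 tested, of which 3 rose, 2 fell and 42 did not pass. That is 10.6%, against 14.4% of all tested genes, and the list's median log2 difference was -0.02. Perp, a membrane protein and known p53 target, had 448.0 and 490.7 units in the knockdown and 262.6 and 305.2 units in the control, a difference of 0.69 ± 0.11 (SE; adjusted p = 0.00347 by limma), and it kept its call in all 17 alternatives. Daxx (0.33) and Siva1 (0.27) also rose, and Mtch2 (-0.49) and Birc5 (-0.30) fell. MTCH2 is the mitochondrial receptor of cut BID, and Birc5 encodes survivin. Leaving out knockdown replicate 2 ended the call of each of these 4 (adjusted p = 0.129 to 0.232). Daxx and Birc5 also lost theirs without control replicate 1 (0.118 and 0.0652) or control replicate 2 (0.0508 and 0.0695), and Siva1 without control replicate 1 (0.186). Further tested probe sets of Mtch2 gave -0.28, -0.15 and 0.05, and none of them passed.

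Of 20 transcription regulators that are known to act on apoptosis genes, 14 were tested, of which 4 rose, 3 fell and 7 did not pass. That is 50% called, 28.6% higher and 21.4% lower, against 14.4% of all tested genes, 9.33% higher and 5.09% lower, on a list chosen with earlier results of these data known. Rela, an NF-kappaB subunit, rose (log2 difference 0.78 ± 0.10, SE; adjusted p = 0.00129 by limma), with 408.5 and 448.8 units in the knockdown and 247.1 and 235.4 units in the control. Jun, of AP-1, rose by 0.68 ± 0.11 (adjusted p = 0.00523), with 204.1 and 189.8 units in the knockdown and 115.5 and 115.4 units in the control. Both kept their calls in all 17 alternatives. Ddit3, which encodes the stress factor CHOP, fell by 0.49 on the log2 scale (adjusted p = 0.0371), with 66.3 and 70.0 units in the knockdown and 99.1 and 109.1 units in the control. Its call was lost without each array in turn, with adjusted p between 0.0727 and 0.163. Myc (0.68) and the p53 ubiquitin ligase Mdm2 (0.66) were the other rises, and Atf4 (-0.65) and Irf1 (-0.57) the other falls. Atf4 lost its call with the mean of all its probe sets (-0.42, adjusted p = 0.0592) and with the spike-in scaling (-0.34, 0.198), Irf1 with the spike-in scaling (-0.26, 0.389) and Mdm2 when no filter was set (0.0583). Foxo3 varied widely between the control arrays, with 269.8 and 187.2 units in the knockdown and 105.4 and 190.8 units in the control (0.59 ± 0.23, adjusted p = 0.113), and it passed at 0.83 (0.0364) when knockdown replicate 2 was left out and at 0.97 (0.00208) when control replicate 2 was. Foxo3 was at 0.35 (0.319) without knockdown replicate 1 and at 0.22 (0.491) without control replicate 1. Hif1a had a difference of -0.21 ± 0.10 (adjusted p = 0.195). Trp53 was not analysed here.

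**Figure D4:**
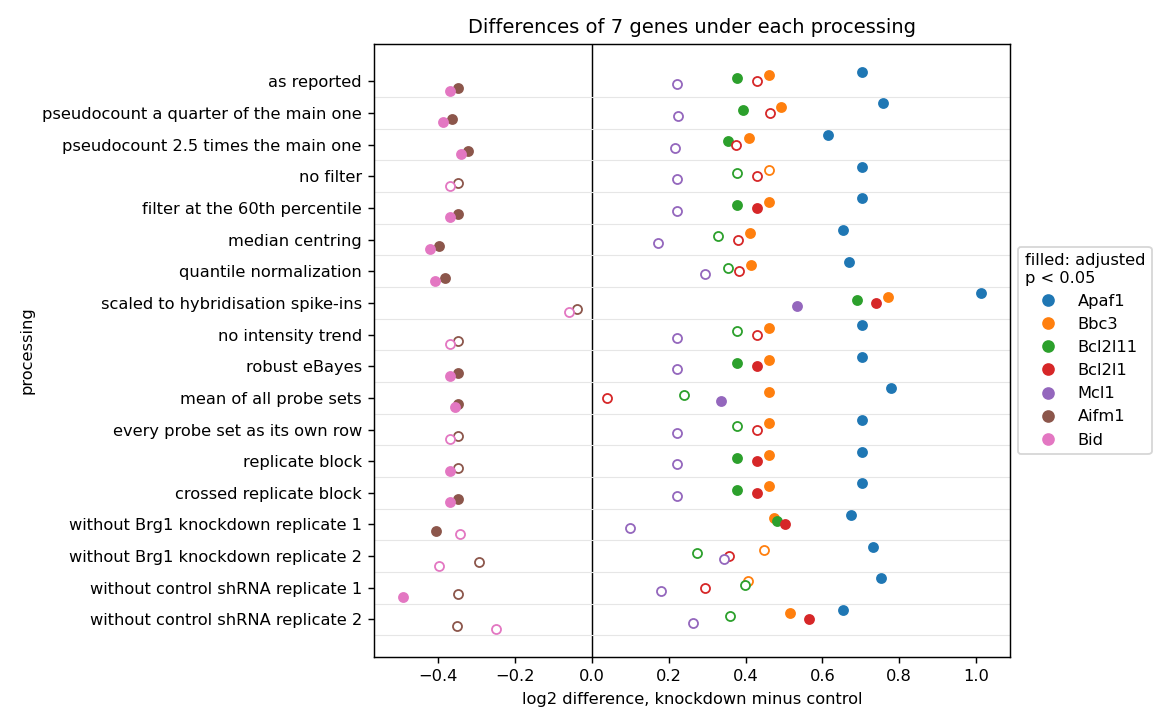
Log2 difference, knockdown minus control, of 7 apoptosis genes (colours) as reported and under each of 17 other ways of processing the arrays (rows), filled where the adjusted p was under 0.05. Apaf1 is filled in every row, and Bid and Aifm1 come close to 0 with the spike-in scaling.

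Markers of the cells the cultures could hold were summed over each list, and the markers named here as called were picked after their values were seen. In bulk RNA, fewer cells of a type and less RNA per cell cannot be told apart. All 10 ES cell markers were above the level for testing, and their summed signal was 20347 to 20720 units in the knockdown and 19980 to 20168 units in the control. Within that sum, of which Dppa5a is the brightest part, Nanog (log2 difference 0.87, adjusted p = 0.000299 by limma) and Esrrb (0.38, 0.016) rose, Lin28a (-0.38, 0.018) fell and the other 7 did not pass. Trophectoderm markers summed to 1496 to 1599 units in the knockdown and 936.5 to 979.2 units in the control. Of these, 5 of 11 were above the level for testing. Krt8, Tfap2c and Hand1 rose, and Krt18 (log2 difference 0.19) and Eomes (0.32) did not pass. Without Krt8, the brightest, the sums were 806.3 to 813.4 units in the knockdown and 607.0 to 610.4 units in the control, and Cdx2 and Elf5 were below the level. Primitive endoderm markers summed to 1360 to 1504 units in the knockdown and 1143 to 1306 units in the control (5 of 12 above the level). Sparc and Foxa2 rose. The other 3 tested, Lamb1 (-0.24), Dab2 (-0.12) and Col4a1 (-0.06), lay below 0 and did not pass. The median log2 difference of the tested ones was -0.06. Without Sparc the sums overlapped, at 667.6 to 669.6 units in the knockdown and 647.3 to 678.3 units in the control. Fibroblast markers summed to 2335 to 2474 units in the knockdown and 2329 to 2341 units in the control, a sum that joins opposite changes. Of the 4 of 17 above the level, Vim rose (log2 difference 1.10, adjusted p = 9.54e-05) and Fn1 fell (-0.70, 0.000774), and Col1a1, Col1a2 and Col3a1 were below it. Leukocyte markers, of the cells known for inflammatory caspases, summed to 262.8 to 348.1 units in the knockdown and 205.1 to 221.7 units in the control (4 of 10 above the level). Cd68, with 100.1 and 104.2 units in the knockdown and 36.7 and 44.7 units in the control, was the one that rose, and without it the sums overlapped, at 162.7 to 243.9 units in the knockdown and 160.4 to 185.0 units in the control. Ptprc was below the level. Their part in the differences of Apaf1, Bbc3, Bcl2l11, Bid and Aifm1 was not tested.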

How the data were processed

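RNA of 2 knockdown and 2 control samples was read on 1 Affymetrix array each. The authors deposited an intensity for each probe set, on a linear scale, made with GCOS per the submitters' processing notes. The sources used here give no version, algorithm or scaling target for it. Of its 22690 probe sets 64 are array controls, and the platform annotation gives 1 gene for 20380, several for 691 and none for 1555. Entrez IDs gave current symbols for 20351 through the RefSeq table of GRCm38.p6, and 29 kept the platform's symbol. No detection calls were used.

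Signals were analysed as log2(signal + 20.0), the pseudocount being 10% of the trimmed mean, without renormalizing. Every difference and fold refers to that scale and understates change in dim genes. Of several probe sets the one with the highest mean was used, _x_at ones last. Genes whose mean reached 23.9 units, the 40th percentile of the probe sets, were tested with limma 3.58.1 in R 4.3.3 (lmFit, eBayes with an intensity trend, two-sided), with Benjamini-Hochberg adjustment and a threshold of 0.05. A second fit took every probe set by itself. The model was tested on simulated data, and the outcome is not reported here, so no error rate can be taken from it. With 2 arrays per group the number of arrays limits the precision, and p-values measure the spread between duplicate infections of 1 cell line. The labels give no batch or date. All 4 sample columns were used.

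The members and lists were chosen with earlier results of these data known, so the lists were given no test of their own. All members are described; further genes are those past the test with the smallest p (up to 8 of the further list, 5 of the regulators) and 5 regulators picked by name. Alternatives changed the pseudocount, filter, normalization, variance model, probe set rule, replicate block and threshold, or left out an array. When an array is left out, the lone array is assumed to vary like the other group.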

Additional observations from a re-analysis of the deposited data

How the results depend on the processing

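Apaf1, Perp, Rela, Myc, Jun and Smarca4 stayed past the threshold under all 17 alternatives. Without a filter 433 genes in all were called, against 1127, with 1 rise and 0 falls among the 35 apoptosis genes, 1 rise and 0 falls among the further apoptosis genes, and 3 probe sets. Median centring gave 622 higher and 598 lower genes in all, against 729 and 398, and 1 rise and 5 falls among the further genes. Scaling to the hybridisation spike-ins put the median of all genes at 0.35, against 0.04, and gave 1445 higher and 21 lower genes, 7 rises and 0 falls among the apoptosis genes, a median of 0.31 for them, 0 falls among the further genes and 15 probe sets, and turned Birc5 to 0.0117. Without the intensity trend 764 genes passed in all, with 0 falls among the apoptosis genes, 1 rise and 0 falls among the further genes, and 3 probe sets. The mean of all probe sets gave 1 fall among the further genes, and probe sets as rows of their own gave 0 falls among the apoptosis genes and 1 rise among the further genes. At an adjusted p threshold of 0.01, 393 genes passed in all, with 1 rise and 0 falls in either list. Without 1 array in turn, 601 to 1171 genes passed in all, with 1 to 6 rises and 0 to 2 falls among the apoptosis genes, 1 to 4 rises and 0 to 2 falls among the further genes, and 3 to 7 probe sets. Deviations from the group mean in replicate 1 of both groups had a correlation of -0.136 over the 7815 tested genes. The numbers were therefore not taken to pair the samples. With the replicate block 1187 genes passed in all, and 4 apoptosis genes rose and 1 fell. The crossed pairing, chosen after seeing the data, gave 1478 genes, 4 falls among the further genes and 11 probe sets. The cause of these shifts was not tested. Signal limits what can be said of the dim genes, since 6 of 35 lay below the level for testing.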
